A study of Mus musculus with 72 samples.

Results

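The clustered histone genes are the replication-dependent genes of the 5 histone families, which lie side by side in the genome. They were taken here as every row of the deposited expression matrix whose symbol starts with HIST1H, HIST2H, HIST3H or HIST4H. This gave 54 of the 16835 listed genes, of which 6 are named for linker histone H1, 13 for H2A, 15 for H2B, 9 for H3 and 11 for H4. No measured value was used to choose them.

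Core histones H2A, H2B, H3 and H4 form the protein spool around which DNA is wound, and H1 binds the DNA between spools. Clustered histone genes are transcribed mainly while DNA is being copied, with NPAT as a coactivator, and their mRNAs usually end right after a short stem-loop instead of in a poly(A) tail. SLBP binds that stem-loop and is needed for processing, export and translation of the message. A share of these mRNAs can instead be cut at a downstream poly(A) signal and gain a tail, which is known above all from differentiating or non-dividing cells. Replacement histones such as H2AFZ and H3F3B are encoded by single genes outside the clusters, and their mRNAs carry poly(A) tails. A library made by poly(A) selection therefore samples the 2 kinds of histone message differently.

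The libraries were prepared from total RNA of BALB/c mice bearing CT26, a mouse colon carcinoma line, with poly(A) selection and stranded paired-end reads. There were 72 libraries in 24 groups of 3 mice. The arms were TS/PD1/CYTO, TS/CYTO, PD1/CYTO, PD1, CYTO and the control Isotype, and all mice carried the tumor. TS and CYTO are written as in the labels, which do not spell them out. Each arm was sampled in tumor, spleen and tumor-draining lymph node (called node below) at day 23 and in node at day 16. The node and spleen of day 23 came from the same 18 mice by their numbers, and 14 of these also gave the tumor. Replicates were separate mice by number, so p-values measure the spread between mice. Strain, day and tissue were given, but no age, dose or sex.

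Values are log2(TPM + 1), where TPM is a level per transcript length and per total, so that levels of different genes can be set side by side. The floor is the lowest listed value, 0.01, and covers any TPM up to 0.01. The matrix holds no read numbers, so no counting interval is given. In 3 day 16 nodes the labelled tissue was not borne out by its markers. The mean of 6 B cell markers was 0.68 in PD1/CYTO mouse 22, 3.21 in TS/PD1/CYTO mouse 34 and 4.31 in PD1 mouse 16, against at least 7.35 in the day 23 nodes. The mean of 6 adipocyte markers was 10.11 in mouse 34 and 10.55 in mouse 16, the highest of all libraries. Tumors lacked both B cell markers (mean at most 0.46) and erythroid markers (mean at most 0.89). Batch numbers followed tissue, with 2 for nodes and 4 for spleens. The 14 tumors kept in RNAlater had batch 3, whereas the 4 fresh-frozen ones had batch 2. Tissue and batch cannot be told apart except between the batch 2 tumors and the nodes. There preservation differs, since those tumors were fresh-frozen and the nodes were kept in RNAlater.

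The ends of the annotated transcripts are shown first, since poly(A) selection acts on them. In GENCODE M21 (GRCm38, the assembly that mm10 names), 53 of the 54 symbols were found, 52 of them as protein-coding genes. HIST1H2AJ is annotated as an unprocessed pseudogene, and was left out of the search of transcript ends. These lie on chromosome 13 (46 genes between 21715763 and 23934851), chromosome 3 (4 genes), chromosome 11 (2 genes) and chromosome 6 (1 gene). Each coding transcript was searched after its stop codon for a strict form of the histone stem-loop, and its last 40 bases for the poly(A) signal AATAAA or ATTAAA, on the transcript's strand. The stem-loop was found in 36 of the 52, against 62 of 21028 protein-coding genes with bases annotated after the stop (0.295%). A poly(A) signal at the end was found in 12 of the 52, against 16499 of the 21028 genes (78.46%). For 13 of the 52 the annotation ended fewer than 20 bases after the stop, so that neither element could be seen there.

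The stem-loops of the members whose levels are described most below were these, with the stem-loop in capitals:
HIST1H1C: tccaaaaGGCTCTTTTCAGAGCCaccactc
HIST1H4I: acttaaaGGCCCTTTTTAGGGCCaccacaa
HIST1H4H: aaccaaaGGCCCTTTTCAGGGCCgcccaca
HIST3H2A: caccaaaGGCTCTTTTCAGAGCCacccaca
HIST3H2BA: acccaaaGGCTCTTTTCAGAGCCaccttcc
HIST1H2BE: aaccaaaGGCTCTTTTCAGAGCCacccaac
They start 24 (HIST1H1C), 30 (HIST1H4I), 31 (HIST1H4H), 41 (HIST3H2A), 28 (HIST3H2BA) and 29 (HIST1H2BE) bases after the stop codon. Their positions are chr13:23739505-23739534, chr13:22040959-22040988 (minus strand), chr13:23531451-23531480, chr11:58955165-58955194, chr11:58949342-58949371 and chr13:23585524-23585553 (minus strand).

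The same 6 transcripts run on past the stem-loop to a poly(A) signal, shown here in capitals in the 3′ end of each, together with that of HIST2H2BE:
HIST1H1C: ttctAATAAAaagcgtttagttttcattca
HIST1H4I: ttacATTAAAagtattctatgctaa
HIST1H4H: tcttATTAAAagagcgaacatgtgttttac
HIST3H2A: gcccAATAAAataagagtacgtgtataaca
HIST3H2BA: tattAATAAAtttggttcaattttggccac
HIST1H2BE: ccttATTAAAgcattcctgattga
HIST2H2BE: tattAATAAAgttaccgattagtttc
These lie at chr13:23740338-23740367, chr13:22040636-22040660 (minus strand), chr13:23531484-23531513, chr11:58956793-58956822, chr11:58949503-58949532, chr13:23583670-23583693 (minus strand) and chr3:96223713-96223738. The annotated distance from the end of the stem-loop to the end of the transcript was 46 bases for HIST1H4H, 169 for HIST3H2BA, 330 for HIST1H4I, 840 for HIST1H1C, 1643 for HIST3H2A and 1861 for HIST1H2BE. HIST2H2BE had no match to the strict stem-loop, and its poly(A) signal lies 2170 bases after the stop. HIST1H2BC is annotated with 2 exons and 742 bases after the stop, with neither element found.

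As examples among the members that were mostly at the floor, 2 without a poly(A) signal in the annotated end are shown:
HIST1H2AB: aaacaaaGGCTCTTTTCAGAGCCacccaca
HIST1H3G: ctttaaaGGCTCTTCTTAGAGCCacccatc
They are at chr13:23751565-23751594 and chr13:23535882-23535911, with 11 and 47 bases left after the stem-loop. HIST1H4H, above the floor in 69 libraries, had 46 bases left. In the 7 members with a stem-loop that were at the floor in all 72 libraries, 185 (HIST1H1T) to 4884 (HIST1H1D) were left. The stretch was thus not short in these 7. Among members seen in 1 to 36 libraries it ran from 11 (HIST1H2AB) to 1153 (HIST1H1E). It was short in many of them, such as HIST1H2AG (23), HIST1H2BB (23) and HIST1H4B (28). In those seen in 37 to 72 libraries, apart from HIST1H4H, it ran from 155 (HIST1H2BG) to 1861 (HIST1H2BE). Whether this length goes with detection was not tested. An annotated end is where the annotation stops and is not a measured end of the RNA in these samples.

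Only 5 members were above the floor in all 72 libraries: HIST1H1C, HIST1H2BC, HIST2H2BE, HIST1H4I and HIST3H2A. Of the other members, 5 were above it in 37 to 71 libraries (HIST1H4H, HIST3H2BA, HIST2H2BB, HIST1H2BE and HIST1H2BG), 34 in 1 to 36 libraries, and 10 in none. A poly(A) signal at the end was annotated for 4 of the 5 members seen in all libraries and for 3 of the 5 seen in 37 to 71. It was annotated for 3 of the 32 coding members seen in 1 to 36 libraries and for 2 of the 10 seen in none. The stem-loop was found in 3 of 5, 4 of 5, 22 of 32 and 7 of 10 in the same order. The annotation ended fewer than 20 bases after the stop, where neither element could be seen, in 0 of 5, 1 of 5, 9 of 32 and 3 of 10. These counts describe the annotation beside the detection, and no test was made. RSEM divides reads between near-identical copies, so the level of a single member with close relatives is uncertain.

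**Figure D1:**
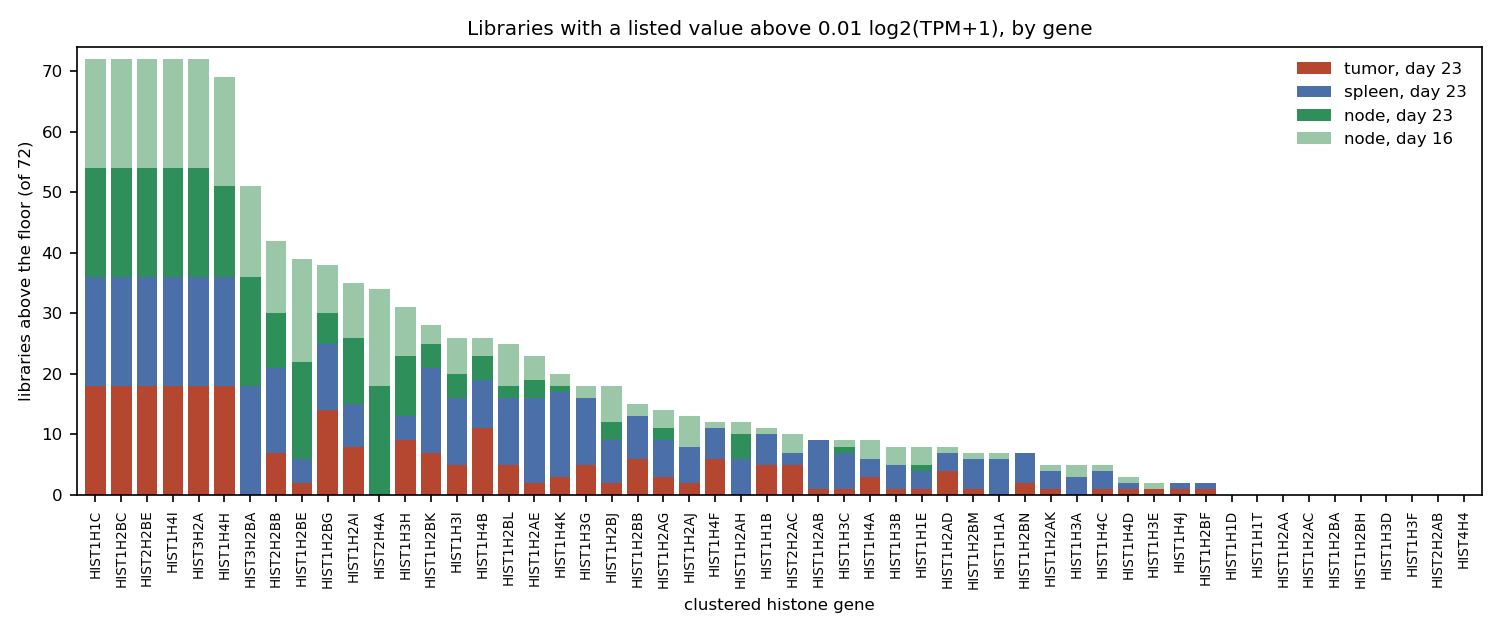
Number of the 72 libraries (y axis) in which each clustered histone gene (x axis) was listed above the floor of 0.01 log2(TPM + 1), stacked by tissue and day (18 libraries each). The first 5 bars reach 72, HIST3H2BA has no tumor, HIST2H4A has nodes only, and the last 10 genes are at the floor everywhere.

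A library held between 7 and 38 members above the floor, with a median of 13. Tumors had a median of 11.5 and a range of 7 to 34, spleens 16.5 and 10 to 38, day 23 nodes 13 and 9 to 15, and day 16 nodes 13 and 10 to 38. Over all listed genes the share above the floor was 58 to 72.5% per library, against 7 to 38 of the 54 members. The libraries with the most members were spleen TS/PD1/CYTO mouse 59 and day 16 node PD1/CYTO mouse 24 (38 each), spleen TS/PD1/CYTO mouse 60 (35) and tumor Isotype mouse 09 (34). The TPM of all members summed to 24.2 to 170 per library (median 53.0), and the 5 members seen in all libraries made up a median of 83.7% of it (44.4 to 96.6%). By its mean over the 72 libraries HIST1H1C stood at percentile 70.7 of all listed genes and HIST1H2BC at 67.3, while HIST2H2BE, HIST1H4I and HIST3H2A stood at 49.1, 48.7 and 44.6.

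Among the linker histones, HIST1H1C had the highest mean of all members. Its lowest, median and highest levels were 3.44, 3.94 and 4.52 in tumors, 4.35, 4.76 and 5.22 in spleens, 3.23, 3.94 and 4.57 in day 23 nodes, and 3.10, 4.10 and 5.58 in day 16 nodes. Spleens were the highest tissue by median, and both extremes of the nodes were day 16 nodes with low B cell markers. HIST1H1A was above the floor in 6 spleens (highest 1.76) and 1 day 16 node (0.96), and in no tumor or day 23 node. HIST1H1B was above it in 5 tumors (highest 1.51), 5 spleens (highest 1.49), no day 23 node and 1 day 16 node (1.81). HIST1H1E was above it in 1 tumor, 3 spleens, 1 day 23 node and 3 day 16 nodes, at no more than 1.22. HIST1H1D and the testis form HIST1H1T were at the floor in all 72 libraries.

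The H2A family was led by HIST3H2A. Its lowest, median and highest levels were 0.37, 0.92 and 1.54 in tumors, 1.80, 2.25 and 2.86 in spleens, 1.93, 2.58 and 2.88 in day 23 nodes, and 0.74, 2.63 and 3.19 in day 16 nodes. No tumor reached the lowest spleen or the lowest day 23 node. HIST1H2AI was listed above the floor in 8 tumors, 7 spleens, 11 day 23 nodes and 9 day 16 nodes, with medians of 0.01, 0.01, 0.22 and 0.04 and a highest level of 2.30. HIST1H2AE, seen in 23 libraries, was above the floor in 14 of the 18 spleens, and HIST1H2AB in 8 spleens, 1 tumor and no node. HIST1H2AG, HIST1H2AJ, HIST1H2AH, HIST2H2AC, HIST1H2AD and HIST1H2AK were seen in 5 to 14 libraries. HIST1H2AA, HIST1H2AC and HIST2H2AB were at the floor in all 72.

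In the H2B family HIST1H2BC was the most abundant. Its lowest, median and highest levels were 3.83, 4.36 and 4.89 in tumors, 3.85, 4.23 and 4.62 in spleens, 2.93, 3.40 and 4.39 in day 23 nodes, and 2.92, 3.60 and 6.16 in day 16 nodes. HIST2H2BE had levels of 0.96, 2.02 and 2.42 in tumors, 2.17, 2.50 and 3.13 in spleens, 2.18, 2.81 and 3.09 in day 23 nodes, and 2.14, 2.81 and 3.16 in day 16 nodes. Tumors were thus high in HIST1H2BC and low in HIST2H2BE relative to nodes.

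HIST3H2BA was above the floor in every spleen and day 23 node and in no tumor. It was listed at 0.01 in all 18 tumors, and its lowest, median and highest levels were 2.56, 3.83 and 4.57 in spleens, 1.34, 2.01 and 2.73 in day 23 nodes, and 0.01, 2.14 and 2.70 in day 16 nodes. The 3 day 16 nodes at the floor were the same 3 that were low in B cell markers. Its neighbour HIST3H2A, a few kilobases away on chromosome 11, was above the floor in all tumors.

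The other H2B members were lower. HIST2H2BB had medians of 0.01 in tumors, 0.45 in spleens, 0.15 in day 23 nodes and 0.24 in day 16 nodes, and its highest level, 3.19, was in tumor Isotype mouse 09. HIST1H2BG had medians of 0.50, 0.23, 0.01 and 0.01 in the same order, with its highest level, 2.17, in the same tumor. HIST1H2BK had a median of 0.50 in spleens and 0.01 elsewhere, with a highest level of 2.13. HIST1H2BE was above the floor in 2 tumors, 4 spleens, 16 day 23 nodes and 17 day 16 nodes, with node medians of 0.36 at day 23 and 0.48 at day 16. HIST1H2BL, HIST1H2BJ, HIST1H2BB, HIST1H2BM, HIST1H2BN and HIST1H2BF were seen in 2 to 25 libraries. HIST1H2BA, a testis form, and HIST1H2BH were at the floor in all 72.

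No H3 member was above the floor in more than 31 libraries. HIST1H3H was the most often seen (31 libraries, highest 2.45), followed by HIST1H3I (26, highest 2.28) and HIST1H3G (18, highest 1.40). HIST1H3G was above the floor in 11 spleens, 5 tumors, no day 23 node and 2 day 16 nodes. HIST1H3C, HIST1H3B, HIST1H3A and HIST1H3E were seen in 2 to 9 libraries, and HIST1H3D and HIST1H3F in none.

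Among the H4 genes, HIST1H4I was seen in every library. Its lowest, median and highest levels were 1.12, 1.68 and 3.28 in tumors, 3.02, 3.24 and 3.61 in spleens, 1.91, 2.44 and 2.64 in day 23 nodes, and 1.72, 2.39 and 3.21 in day 16 nodes. The lowest spleen was above the highest day 23 node. HIST1H4H had levels of 0.07, 1.21 and 1.92 in tumors, 0.32, 1.29 and 1.90 in spleens, 0.01, 0.87 and 2.52 in day 23 nodes, and 0.23, 1.90 and 5.04 in day 16 nodes, with 3 day 23 nodes at the floor. Its range in nodes was far wider than in the other tissues. HIST2H4A was at the floor in every tumor and spleen, and ran from 0.34 to 1.16 (median 0.81) in day 23 nodes and from 0.01 to 1.44 (median 0.72) in day 16 nodes, where 2 libraries were at the floor. HIST1H4K was above the floor in 14 spleens (median 0.95, highest 2.70) but in only 3 tumors, 1 day 23 node and 2 day 16 nodes. HIST1H4B was seen in 26 libraries, HIST1H4F, HIST1H4A, HIST1H4C, HIST1H4D and HIST1H4J in 2 to 12, and HIST4H4 in none.

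**Figure D2:**
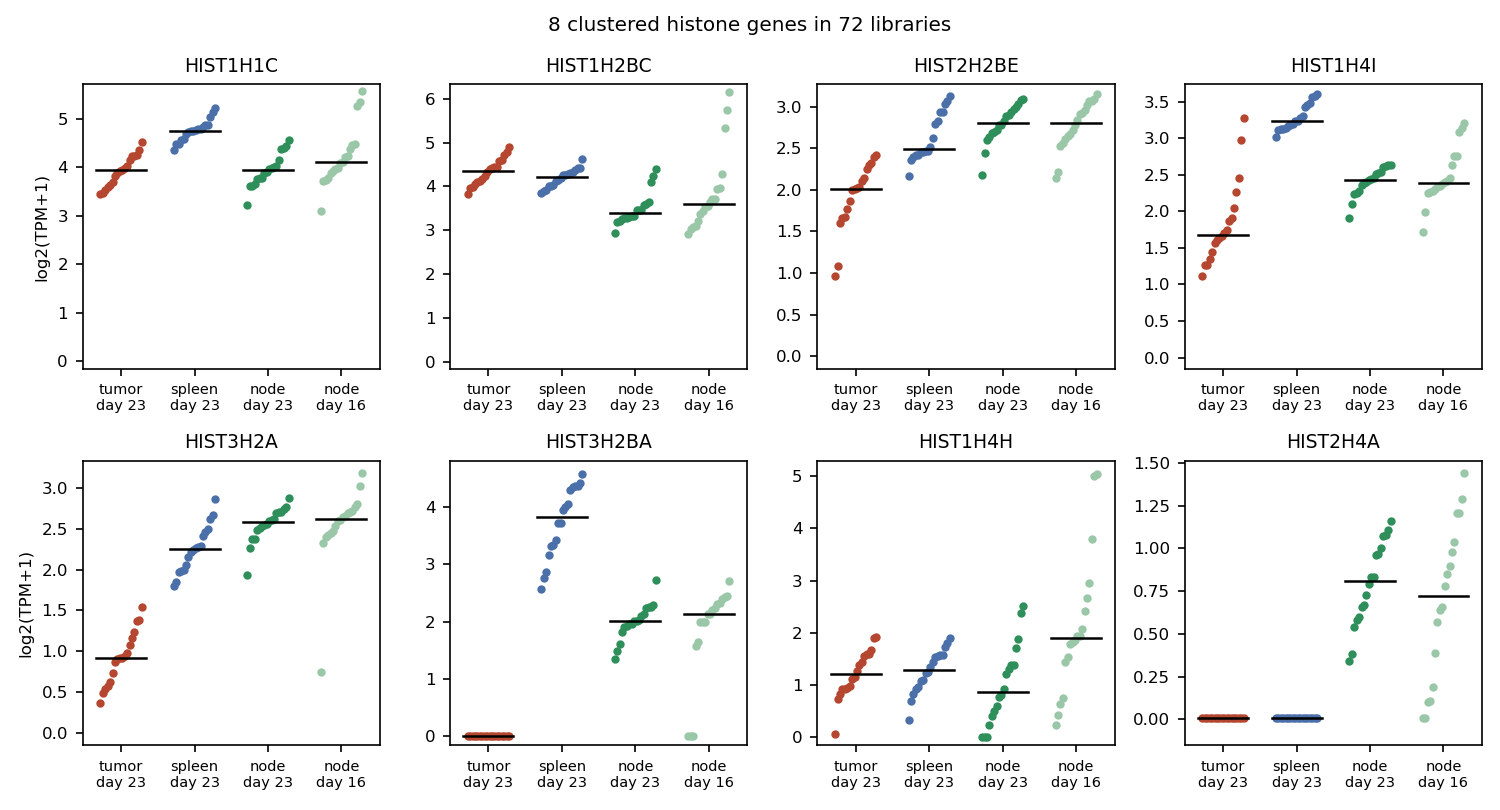
Levels of 8 clustered histone genes in log2(TPM + 1) (y axes, each with its own scale) in tumors, spleens and nodes of day 23 and nodes of day 16 (x axes), with 1 point per library sorted by level and a bar at the median of 18. HIST3H2BA is at 0.01 in all tumors, HIST2H4A is at 0.01 in all tumors and spleens, and HIST1H4H reaches 5.04 in a day 16 node.

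Neighbouring members in opposite orientation share the stretch between their starts. There were 11 such pairs, at most 659 bases apart, and in 2 of them 1 gene was seen in all 72 libraries. HIST1H2AC was at the floor in all 72 libraries, while HIST1H2BC, whose start lies 250 bases away, was above it in all. HIST2H2AC was above the floor in 10 libraries, and HIST2H2BE, 238 bases away, in all 72. In 7 of the other 9 pairs both genes were seen in at least 1 and in fewer than 40 libraries, for example HIST1H2AE (23 libraries) and HIST1H2BG (38 libraries). In the last 2 pairs neither gene was seen in any library.

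The stretches between these 2 pairs are shown from the RefSeq promoter table (GRCm38.p6), from 250 bases before to 50 after the start of the H2A gene, on the minus strand. The windows are chr13:23683910-23684209 for HIST1H2AC and chr3:96220831-96221130 for HIST2H2AC, and each takes in the annotated start of the H2B partner. Capitals mark the TATA box TATAAA, the CCAAT box and the octamer ATTTGCAT on either strand, 3 motifs that do not overlap in these windows.
HIST1H2AC: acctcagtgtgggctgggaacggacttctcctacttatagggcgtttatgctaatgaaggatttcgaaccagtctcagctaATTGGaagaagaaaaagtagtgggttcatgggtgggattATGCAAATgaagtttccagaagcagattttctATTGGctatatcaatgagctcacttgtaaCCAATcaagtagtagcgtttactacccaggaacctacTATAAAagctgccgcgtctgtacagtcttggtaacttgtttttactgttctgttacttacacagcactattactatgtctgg
HIST2H2AC: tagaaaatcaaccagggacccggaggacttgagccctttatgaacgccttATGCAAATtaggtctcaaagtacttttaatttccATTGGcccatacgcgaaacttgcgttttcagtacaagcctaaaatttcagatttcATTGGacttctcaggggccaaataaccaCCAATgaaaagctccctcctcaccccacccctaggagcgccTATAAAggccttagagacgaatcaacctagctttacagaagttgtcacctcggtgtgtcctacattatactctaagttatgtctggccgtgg
Both windows hold all 3 motifs, and the octamer is known from H2B promoters. Windows of this kind were matched for 47 members. TATAAA was present in 30 of them (63.83%), against 13.62% of all 32851 promoters of the same length in the table. CCAAT was present in 40 (85.11%, against 37.41%) and ATTTGCAT in 13 (27.66%, against 1.74%). A match is a description of the letters and not a measured site.

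The tissues were compared at day 23 with limma over all genes, calling a gene at a Benjamini-Hochberg adjusted p of 5%. In such bulk samples fewer cells of a type and less RNA per cell cannot be told apart. In tumors against nodes, 9 of the 29 members tested were called, with 3 higher and 6 lower, where 86% of all 12561 genes tested were called. Members above the floor in fewer than 3 libraries of one tissue passed the filter mainly through the other, which leans their direction, so the count was also taken over the 13 members above the floor in at least 3 libraries of both. Of these, 3 were higher and 3 lower. HIST3H2A was lower by 1.63 ± 0.10 (difference and SE on the log2(TPM + 1) scale, 18 tumors against 18 nodes; limma adjusted p = 7.325e-17). HIST3H2BA and HIST2H4A were listed at 0.01 in all 18 tumors, against 1.34 to 2.73 and 0.34 to 1.16 in the 18 nodes, and no difference or test is given for them. HIST2H2BE (-0.87 ± 0.10) and HIST1H4I (-0.56 ± 0.14) were lower on the deposited scale, but their differences were 0.05 and 0.47 after quantile normalization. HIST1H2BC was higher in tumors by 0.83 ± 0.12 (limma adjusted p = 9.184e-08), as were HIST1H2BG (0.52 ± 0.16) and HIST1H4B (0.29 ± 0.10). HIST1H2BE was above the floor in 2 tumors, against 16 nodes. HIST1H1C, the most abundant member, was not called.

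The median difference between tumors and nodes was -0.45 over all genes. On the deposited scale 27.8% of all genes were higher and 58.16% lower. After quantile normalization the median over all genes was -0.02, 42.93% of genes were higher and 44.16% lower, and of the 13 members 10 were higher and 1 lower. Within batch 2, 4 fresh-frozen tumors against nodes kept in RNAlater, 6 members were called, where 83.2% of genes were. HIST3H2A (-1.96), HIST2H2BE (-1.33) and HIST1H2BC (0.69) were among the 6, and the other 3, HIST3H2BA, HIST2H4A and HIST1H2BE, were at the floor in all 4 tumors. HIST1H4I (-0.01), HIST1H4B (0.06) and HIST1H2BG (0.10) did not pass the test there. Without tumor Isotype mouse 01 the comparison called 14 members, 8 higher and 6 lower, where 86.7% of genes were called.

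In spleens against nodes, 20 of the 39 members tested were called, with 17 higher and 3 lower, where 92% of 12454 genes were called. Of all genes 9.57% were higher in spleens and 82.4% lower. Of the 39, 20 were above the floor in fewer than 3 nodes and passed the filter mainly through spleens, so nothing is read from the count of 17. Over the 18 members above the floor in at least 3 libraries of both tissues, 8 were higher and 2 lower. HIST1H4I (0.88 ± 0.07, limma adjusted p = 5.601e-14), HIST3H2BA (1.73 ± 0.15, limma adjusted p = 1.218e-12), HIST1H1C (0.81 ± 0.08, limma adjusted p = 1.024e-10) and HIST1H2BC (0.69 ± 0.10, limma adjusted p = 1.141e-07) were higher. The other 13 members called higher in spleens had a node median at the floor, and 7 of them (HIST1H1A, HIST1H2AB, HIST1H2AJ, HIST1H2BB, HIST1H2BM, HIST1H3G and HIST1H4F) were at the floor in all 18 nodes. HIST2H4A was listed at 0.01 in all 18 spleens, against 0.34 to 1.16 in the nodes, and no difference or test is given for it. HIST1H2BE (-0.30 ± 0.06) and HIST3H2A (-0.29 ± 0.08) were lower on the deposited scale, but not after quantile normalization (0.08 and 0.84), and HIST3H2A also turned to 0.26 when the listed TPM were rescaled to the same sum.

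The median difference between spleens and nodes was -0.94 over all genes. It was -0.10 after quantile normalization, with 35.49% of genes higher and 48.61% lower, and 16 of the 18 members higher and 0 lower. With the listed TPM rescaled it was -0.43, with 23.7% of genes higher and 63.31% lower, and 13 of the 18 higher and 1 lower. The mean of the S phase genes moved with these tissues, and 16 of 16 S phase genes were higher in spleens. With that mean as a covariate 4 members were called higher and 9 lower, where 75.5% of genes were called, and 12 of the low-level members turned in sign. The S phase mean ran from 5.35 to 6.73 in spleens and from 4.46 to 5.34 in day 23 nodes, without overlap. The turned signs therefore cannot be read as a difference at a shared S phase level. With RNA integrity as a covariate 11 members were called, 7 higher and 4 lower, where 88.4% of genes were. Their part in the tissue difference was not tested further.

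In tumors against spleens, 11 of the 39 members tested were called, with 1 higher and 10 lower, where 81.9% of 11967 genes were called. Over the 22 members above the floor in at least 3 libraries of both tissues, 1 was higher and 5 lower. HIST1H4I (-1.45 ± 0.13), HIST3H2A (-1.33 ± 0.11), HIST1H1C (-0.83 ± 0.09), HIST1H4K (-0.81) and HIST2H2BE (-0.72 ± 0.11) were lower in tumors. The other 5 called lower were above the floor in at most 2 tumors. HIST3H2BA, listed at 0.01 in all tumors against 2.56 to 4.57 in spleens, was one of them, and with the mouse as a block 3 of the others, HIST1H1A, HIST1H2AB and HIST1H2AH, were not called. HIST1H2BG was higher by 0.41 ± 0.16 (limma adjusted p = 0.01925). The median difference was 0.39 over all genes, of which 55.72% were higher and 26.14% lower. Quantile normalization gave 43.5% and 38.67% of all genes, and 1 of the 22 members higher and 7 lower. Rescaling gave 33.53% and 45.61% of all genes, a median of -0.14, and 0 of the 22 higher and 11 lower. With RNA integrity as a covariate 7 of the 39 members were called, 1 higher and 6 lower, where 75.6% of genes were.

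**Figure D3:**
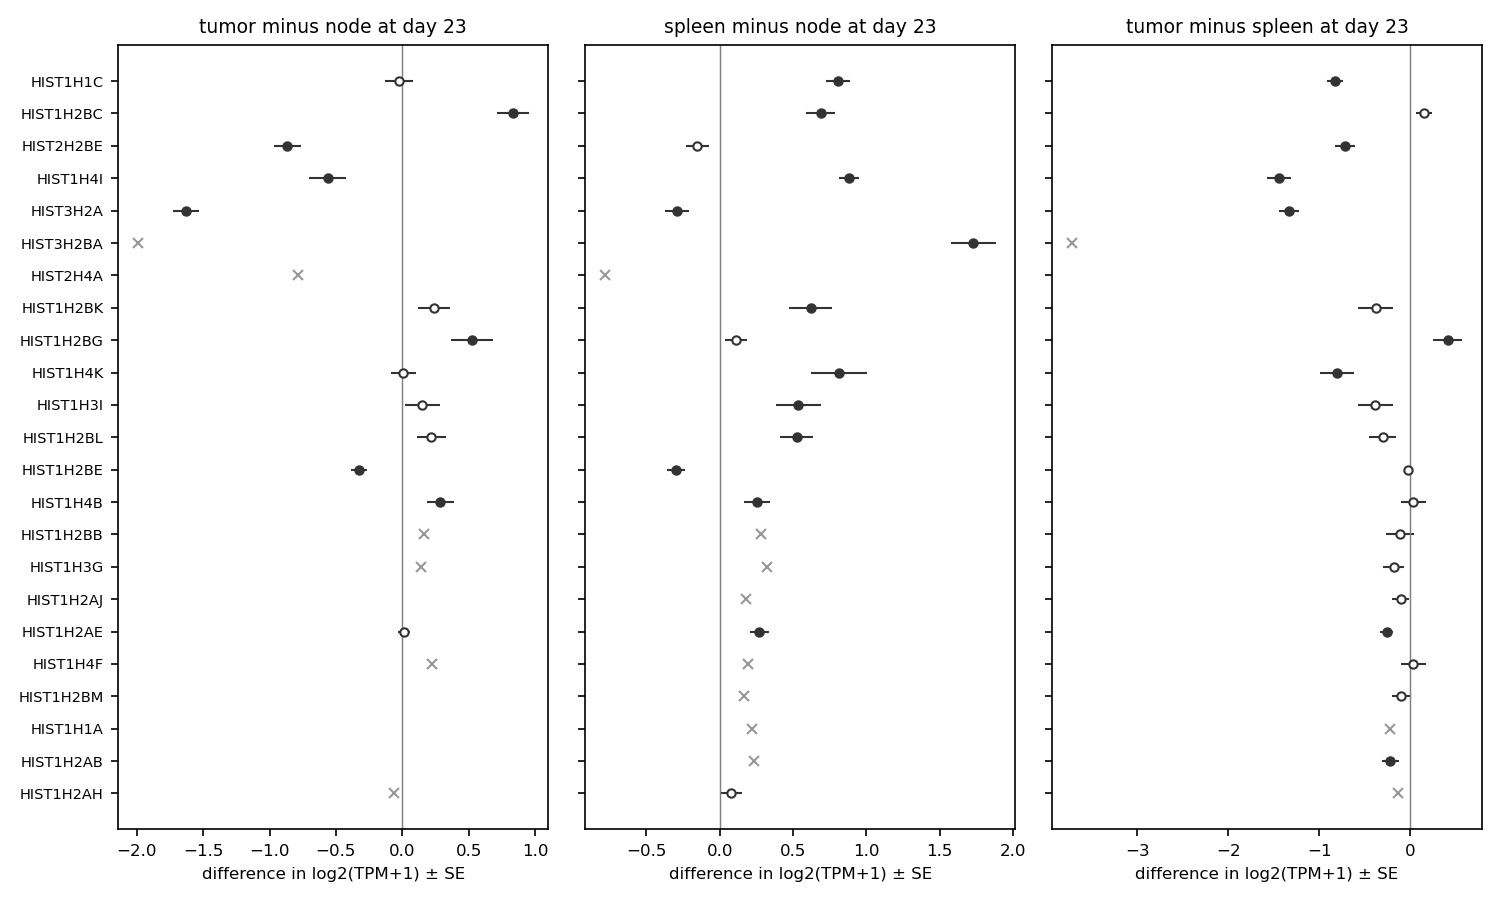
Differences in log2(TPM + 1) with their SE (x axes) for the members called in at least 1 of 3 tissue comparisons at day 23 (18 libraries per tissue), from the limma fits. Filled points passed an adjusted p of 5% and open points did not, and gray crosses mark members at the floor in every library of one of the 2 tissues, which were not read as tests. HIST1H4I lies at -0.56, 0.88 and -1.45 and HIST3H2A at -1.63, -0.29 and -1.33.

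Other genes of histone supply were read from lists. Against nodes, 27.8% of all genes were higher and 58.16% lower in tumors, and 9.57% higher and 82.4% lower in spleens. Of 16 S phase genes, 14 were higher in tumors than in nodes and none was lower, and all 16 were higher in spleens. Of 13 genes for processing and transcription of histone mRNA, 2 were higher and 9 lower in tumors, and 1 was higher and 12 lower in spleens, both against nodes. The 1 that was higher in spleens was SLBP, by 1.18 ± 0.09, and it was higher in tumors by 0.62 ± 0.06. The coactivator NPAT was lower in both, by 0.52 in tumors and 0.65 in spleens, where the medians over all genes were -0.45 and -0.94. Of 11 replacement histones, 7 were higher and 4 lower in tumors, and 4 were higher and 5 lower in spleens. H2AFZ was higher in both (1.32 in tumors and 0.67 in spleens), whereas H3F3B was higher in tumors (0.68) and lower in spleens (-0.23). H1F0, a replacement linker histone of differentiated cells, was higher in tumors by 2.18 and lower in spleens by 1.34. Of 14 histone chaperones, which hand histones to DNA, 7 were higher and 5 lower in tumors, and 4 were higher and 8 lower in spleens.

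The replacement histones H2AFZ and H3F3B were above every clustered histone gene on the per-length scale, by their medians. H2AFZ had medians of 9.84 in tumors, 9.12 in spleens, 8.51 in day 23 nodes and 8.51 in day 16 nodes, and H3F3B of 9.17, 8.23, 8.49 and 8.58. The highest single value of any clustered histone gene was 6.16. Not all replacement histones were high: H2AFY2 had medians of 0.01 in tumors and spleens, 1.01 in day 23 nodes and 1.14 in day 16 nodes. SLBP had medians of 6.55, 7.05, 5.99 and 6.07 in the same order, NPAT of 2.47, 2.24, 2.99 and 2.88, PCNA of 8.61, 8.15, 7.21 and 7.37, and MKI67 of 4.97, 6.23, 5.41 and 5.62.

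In the nodes, 3 members followed the adipocyte markers from mouse to mouse. HIST1H4H, HIST1H2BC and HIST1H1C were highest in PD1 mouse 16 of day 16 (5.04, 6.16 and 5.58) and TS/PD1/CYTO mouse 34 (5.01, 5.75 and 5.35), the 2 libraries with the most adipocyte signal. Next came TS/CYTO mouse 29 of day 16, with levels of 3.80, 5.34 and 5.26, an adipocyte mean of 8.95 and a B cell mean of 7.59. HIST1H4H was at the floor in 3 day 23 nodes, 2 of CYTO mice and 1 of an Isotype mouse. Their adipocyte means were 1.54, 3.25 and 6.01, and the last was above the day 23 node median of 5.68. HIST2H2BE was lowest among the day 16 nodes in mouse 16 (2.14), so that the members did not all move together.

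The relation was tested in limma as the change per unit of the mean of 6 adipocyte markers (ADIPOQ, PLIN1, CFD, FABP4, LEP and CIDEC) within the 12 groups of nodes, a test added after the values were seen. Of 27 members tested, 7 rose with the markers and none fell, where 45.8% of 12596 genes changed and 24% rose. After quantile normalization 4 rose and 2 fell, where 21.41% of genes rose and 31.53% fell. The slope was 0.60 ± 0.06 for HIST1H4H (limma adjusted p = 3.103e-08), 0.34 ± 0.05 for HIST1H2BC (limma adjusted p = 1.415e-05), 0.23 ± 0.04 for HIST1H1C (limma adjusted p = 2.381e-05) and 0.15 ± 0.04 for HIST1H2BE (limma adjusted p = 0.002348). HIST1H4I, HIST1H1E and HIST1H3H had slopes of 0.11, 0.09 and 0.13. Without the 3 nodes low in B cell markers, 5 of 24 members rose, where 33.7% of genes changed and 27.6% rose. HIST1H4H (0.49 ± 0.06, limma adjusted p = 1.878e-06), HIST1H2BC (0.24 ± 0.05) and HIST1H1C (0.16 ± 0.04) were among the 5. With RNA integrity as a covariate, which drops the 1 library without a number, HIST1H4H, HIST1H2BC and HIST1H1C were the 3 called, where 15.2% of genes were. The 6 adipocyte markers make up this axis, so their own rise along it was fixed in advance. Of other lists, 4 of 4 fibroblast and matrix markers and 3 of 3 simple epithelial keratins rose along it. In turn 16 of 16 S phase genes fell (2 of 16 without the 3 nodes). Which cells carried these messages was not tested.

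**Figure D4:**
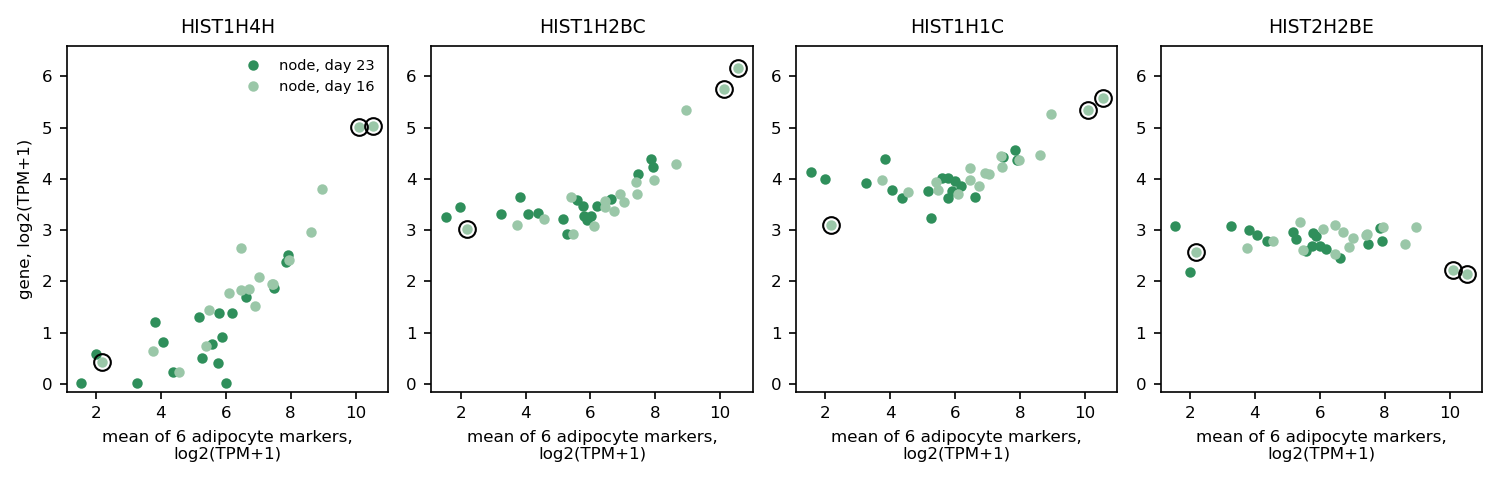
Levels of 4 clustered histone genes (y axes, log2(TPM + 1)) against the mean of 6 adipocyte markers (x axes, log2(TPM + 1)) in the 36 nodes, with 1 point per library coloured by day and rings around the 3 day 16 nodes low in B cell markers. HIST1H4H, HIST1H2BC and HIST1H1C reach 5.04, 6.16 and 5.58 at the right, while HIST2H2BE does not rise.

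Whether the members move with DNA replication was asked by a slope on the mean of 16 S phase genes within all 24 groups. Of 41 members tested, 3 rose (HIST3H2BA by 0.54 ± 0.14, HIST2H2BE by 0.29 ± 0.08, HIST1H3G by 0.19 ± 0.07 per unit) and 5 fell, where 49.4% of 12984 genes changed, 29% upward and 20.4% downward. After quantile normalization 10 rose and 4 fell, where 30.27% of genes rose and 25.65% fell, and with the listed TPM rescaled 5 rose and 5 fell, where 33.6% rose and 20.26% fell. Those that fell were HIST1H2BC (-0.92 ± 0.12), HIST1H4H (-1.11 ± 0.23), HIST1H1C (-0.59 ± 0.10), HIST1H4I (-0.42 ± 0.10) and HIST1H2BE (-0.34 ± 0.08). The 3 nodes low in B cell markers weighed on this count. The S phase mean was 3.04 and 3.57 in TS/PD1/CYTO mouse 34 and PD1 mouse 16, and 6.46 in PD1/CYTO mouse 22. Without the 3, 12 members rose and 2 fell (HIST1H2BC by 0.59 and HIST1H4I by 0.44), where 28% of 12899 genes changed. Leaving out PD1/CYTO mouse 22 alone gave 9 that rose and 5 that fell, where 59.5% of genes changed.

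The spleens were also fitted alone. Their S phase mean ran from 5.35 in TS/PD1/CYTO mouse 58 to 6.71 in mouse 60 and 6.73 in mouse 59 of that arm, and the number of members above the floor was 10, 35 and 38 in these 3. PD1 mouse 30 was next, with an S phase mean of 6.62 and 30 members. Within the spleens 18 of 38 members rose with the S phase mean and 1, HIST1H4I, fell (-0.30 ± 0.12), where 57.7% of 11184 genes changed. Upward changes were 12.3% of all genes. The smallest adjusted p values were those of HIST3H2BA (1.14 ± 0.17, limma adjusted p = 9.448e-05), HIST1H3G (0.77 ± 0.14, limma adjusted p = 0.0005418), HIST1H1A (0.71 ± 0.17, limma adjusted p = 0.002767) and HIST1H2BB (0.80 ± 0.20, limma adjusted p = 0.004491). HIST1H1A, for example, was at 1.76 and 1.00 in mice 59 and 60, at 0.49, 0.34, 0.33 and 0.14 in 4 further spleens, and at the floor in the other 12.

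This count rests on 2 libraries. Without TS/PD1/CYTO mice 59 and 60, the spleens of highest S phase mean, only 30 members pass the filter. The rest were tested only through these mice, which leans their slopes upward. The count is therefore not read against the share of all genes that rose. Without these mice, 1 of 30 members rose (HIST1H3G, 0.72 ± 0.21, limma adjusted p = 0.0415) and none fell, where 11.9% of genes changed and 6.41% rose. By unadjusted p under 0.05 there were 4 of the 30, where 26.75% of all genes had such a p. HIST3H2BA then had a slope of 0.89 ± 0.27 (limma adjusted p = 0.05119). Along the S phase mean in spleens 8 of 8 erythroid markers rose, with means between 6.68 and 8.44, and 6 of 6 B cell and 6 of 6 T cell markers fell. SLBP (0.83 ± 0.09) and the chaperone genes CHAF1B (1.06 ± 0.07) and ASF1B (1.02 ± 0.08) rose with it too. The part of erythroid cells in the histone signal was not tested.

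**Figure D5:**
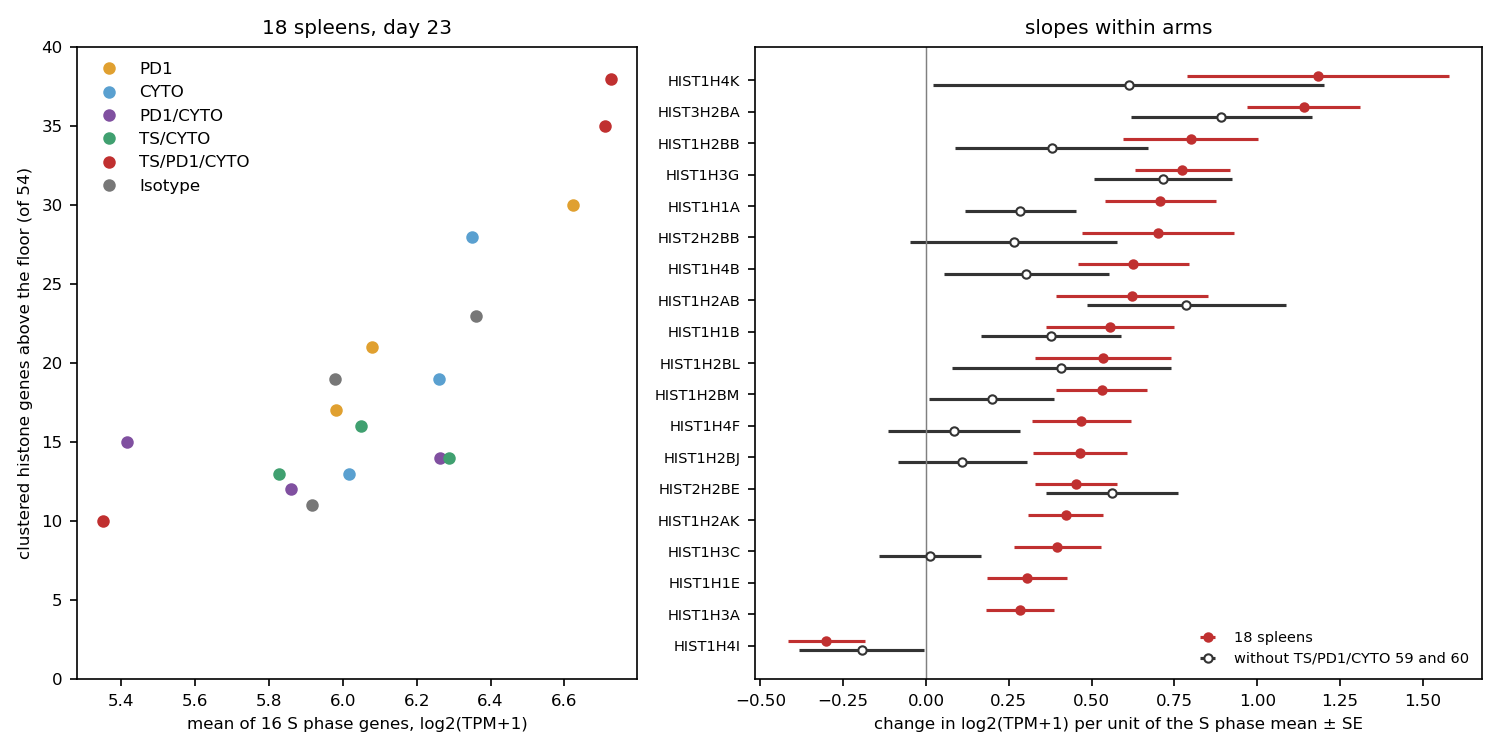
Left, number of clustered histone genes above the floor (y axis, of 54) against the mean of 16 S phase genes in log2(TPM + 1) (x axis) in 18 spleens, coloured by arm. Right, slopes with SE (x axis, change in log2(TPM + 1) per unit of the S phase mean, within arms) in all 18 spleens (filled) and without TS/PD1/CYTO mice 59 and 60 (open, whether or not called), where a gene no longer tested has no open point. The 2 libraries lie at the upper right with 38 and 35 genes.

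The treatments were read as PD1, CYTO and TS effects over matched arms. No member was called for any of them in tumors, spleens or day 16 nodes, where 0% of all genes were called. In day 23 nodes no member was called either, where 0.0164% of 12203 genes were called for PD1, 0.0656% for CYTO and 0.00819% for TS. Unadjusted p values under 0.05 were counted in the order PD1, CYTO, TS. Tumors had 0, 1 and 1 such members of 23 tested, where 4.78%, 0.898% and 3.38% of all genes had such a p. Spleens had 3, 2 and 6 of 38, where 8.42%, 22.25% and 1.66% of genes did. Without TS/PD1/CYTO mice 59 and 60 only 30 members pass the filter there, so the spleen counts for PD1 and TS are not read. Day 23 nodes had 1, 3 and 1 of 19, where 18.09%, 20.76% and 9.43% of genes did, and day 16 nodes had 2, 0 and 1 of 25, where 7.25%, 0.657% and 1.11% did. The smallest p values in the spleens were those of HIST1H2BL for PD1 (-0.54 ± 0.17, limma adjusted p = 0.5395), HIST3H2A for CYTO (0.50 ± 0.13, limma adjusted p = 0.2193) and HIST1H1C for TS (-0.34 ± 0.10, limma adjusted p = 0.6043). In tumors they were those of HIST1H3G for PD1 (-0.27 ± 0.14) and, in both other effects, HIST1H4I (0.62 ± 0.27 for CYTO, -0.61 ± 0.27 for TS). In day 23 nodes they were those of HIST1H4H for PD1 (0.84 ± 0.31, limma adjusted p = 0.1949), HIST3H2BA for CYTO (0.42 ± 0.17) and HIST1H2BE for TS (0.33 ± 0.14). In day 16 nodes they were those of HIST3H2BA for PD1 (-1.04 ± 0.36), HIST1H3I for CYTO (0.39 ± 0.21) and HIST2H4A for TS (0.60 ± 0.24). The 12 tests of whether an effect differed between tissues or days called no member, with 0 to 6 members at an unadjusted p under 0.05, where 1.53% to 20.77% of genes had such a p, and a smallest adjusted p of 0.128.

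Single arms were also set against Isotype. Only PD1/CYTO spleens gave calls, 2 of 38 members, where 25.5% of 11184 genes were called and 25.4% were higher. HIST1H2BL was 0.01, 0.01 and 0.01 in PD1/CYTO spleens, against 1.5, 0.93 and 1.41 in Isotype spleens. It was thus at the floor in 3 of 3 treated spleens (limma adjusted p = 0.04691). HIST3H2A was 2.67, 2.62 and 2.41 in PD1/CYTO spleens, against 1.80, 1.98 and 1.85 in Isotype spleens (0.69 ± 0.19, limma adjusted p = 0.04691). After quantile normalization the difference in HIST3H2A was -0.02 and no member was called. Both calls ended on leaving out any 1 of these 11 spleens: Isotype 08 or 10, CYTO 19, PD1 28 or 29, PD1/CYTO 38 or 39, TS/CYTO 48, 49 or 50, or TS/PD1/CYTO 60. Without TS/PD1/CYTO mouse 58 there were 6 calls over the 5 arms, where 11.7% of the tests over all genes were called. Other measures moved with these groups. The mean of 7 exocrine pancreas markers was 2.30, 0.01 and 0.01 in PD1/CYTO spleens, against 4.48, 9.60 and 2.16 in Isotype spleens. The B cell mean was 7.58, 7.32 and 7.34 in PD1/CYTO spleens, against 6.04, 6.65 and 6.01 in Isotype spleens, and did not overlap. RNA integrity was 8.4, 8.8 and 7.1 in PD1/CYTO spleens, against 7.1, 6 and 7.5 in Isotype spleens, and overlapped, as did the pancreas means. With RNA integrity as a covariate no member and 0% of genes were called, and the part of the other measures was not tested.

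In TS/PD1/CYTO spleens, 13 of 38 members had an unadjusted p under 0.05 against Isotype, where 9.18% of all genes did, but none was called, the smallest adjusted p being 0.5332, where 0.00894% of genes were called. HIST1H2BG was 0.49, 0.42 and 0.82 in TS/PD1/CYTO spleens, against 0.01 in all 3 Isotype spleens (limma adjusted p = 0.5332). The median difference was 0.42 over the 38 members and 0.20 over all genes. This arm holds mice 59 and 60 with their high S phase means, and also mouse 58 with the lowest. Without mouse 58 the TS effect in spleens called 12 members, 10 higher and 2 lower, where 25% of 11125 genes were called, 1.29% higher and 23.7% lower. Without mice 59 and 60 only 30 members pass the filter in spleens. The rest of the 38 were tested only through these mice, which leans them upward in this arm. Nothing is therefore read from these member counts or the median of 0.42. In the remaining 18 comparisons of an arm with Isotype no member was called, where 0% to 0.0492% of genes were.

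In nodes, day 23 was set against day 16 over all arms. None of 27 members was called, and 0% of 12596 genes were, with 2 members and 17.68% of genes at an unadjusted p under 0.05. HIST1H4H had a median of 0.87 at day 23, against 1.90 at day 16 (-1.13 ± 0.38, limma adjusted p = 0.1919), and HIST1H2AJ differed by -0.23 (limma adjusted p = 0.2621). With the S phase mean as a covariate 2 members were called, both lower at day 23, where 10.2% of genes were called.

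Preservation was compared in tumors, where it followed the batch number and cannot be told apart from it. None of 23 members was called between fresh-frozen and RNAlater tumors, where 15% of 10913 genes were called, with 1 member and 40.93% of genes at an unadjusted p under 0.05. HIST2H2BE was 0.96, 1.09, 1.87 and 2.01 in the 4 fresh-frozen tumors, against a lowest, median and highest of 1.60, 2.08 and 2.42 in 14 RNAlater tumors (-0.54 ± 0.20, limma adjusted p = 0.06719). The groups overlapped, and 2 of the fresh-frozen tumors were below every RNAlater tumor. Without TS/PD1/CYTO mouse 52 or mouse 59, 1 member was called, where 26.5% and 39.8% of genes were. RNA integrity ran from 4.5 to 9, and none of 41 members changed with it within groups, where 5.57% of 12937 genes did, with 1 member and 24.56% of genes at an unadjusted p under 0.05. The smallest p was that of HIST1H2BC (-0.17 ± 0.07 per unit, limma adjusted p = 0.1266).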

How the data were processed

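The authors deposited 1 matrix of 16835 genes by 72 libraries, whose log2(TPM + 1) entries carry 2 decimals. Per the labels, total RNA was made into stranded paired-end libraries after poly(A) enrichment. Per the submitters' processing notes, bcl2fastq 2.20, STAR and RSEM 1.3.0 were used with mm10. The annotation, the strand setting and the read numbers are not given in the sources used here. The listed TPM of a library summed to 408819 to 596021 in spleens and 762240 to 864649 elsewhere, so the scale was varied. TPM keeps no depth, and precision comes from the spread between mice.

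Columns were matched to labels by name, with 0 left unmatched and 0 identical pairs of libraries. Tests were limma 3.58.1 in R 4.3.3 (linear model, trend, robust empirical Bayes) on the deposited log2 values. Genes had to be above 0.01 in at least 3 of the libraries fitted, and p-values were adjusted over all genes tested by Benjamini-Hochberg and called at 5%. Treatments were fitted within each tissue and day (18 libraries), adding batch for tumors. Fits of tissue, day and preservation had arm as a term. PD1, CYTO and TS effects are means of matched differences between arms. Fold changes on the log2(TPM + 1) scale understate those of genes near the floor. The fits were run on simulated data in which changes were added only to genes well above the floor. That run does not bear on members near the floor. Within day 23, the arm and mouse number in the labels were taken to mark the same animal. The pairing of tissues rests on these labels and not on the residuals. Residuals of a mouse's spleen and node had a median correlation of -0.011 over 18 mice. Over 14 mice it was 0.042 between tumor and node, and 0.043 between tumor and spleen.

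The members, lists, comparisons and alternatives were chosen with earlier results of these data known. Values by tissue are given for the 12 members of highest mean and the H1 genes seen in at least 3 libraries. In each comparison up to 4 rising and 4 falling called members of smallest adjusted p are named first, or, with none called, up to 2 and 2 of smallest p. Further members were named after their values were seen. Of other genes, up to 3 per list of smallest p and SLBP, NPAT, H2AFZ, H3F3B, PCNA and MKI67 were eligible. Members at the floor in every library of one tissue were given values and no test in tissue comparisons. Transcript ends came from GENCODE M21 and promoters from RefSeq.

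Alternatives were quantile normalization, listed TPM rescaled to 1 sum, no filter, a filter at the median of means, a pseudocount of 0.1, RNA integrity or the S phase mean as covariate, the mouse as a block, batch 2 only, each tissue alone and leaving out each library.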

Additional observations from a re-analysis of the deposited data

How the results depend on the processing

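TPM keeps no depth, so a value at the floor does not show that a message was absent. Most members were tested near the floor, and batch followed tissue.

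The mouse was also taken as a replicate block in paired tissue fits. These called 9 members in tumors against nodes, 19 in spleens against nodes and 9 in tumors against spleens. Without the block 9, 20 and 11 were called, close to these. With it 84.8%, 91.4% and 83.4% of all genes were called. HIST1H2BM lost its call in spleens against nodes, and HIST1H1A, HIST1H2AB and HIST1H2AH in tumors against spleens; no other call of a named member was lost. The stricter filter left 2 members to test in each tissue comparison. It called 1, 2 and 1 of them in the same order, where 86%, 93.9% and 83.7% of genes were called. It left 2 members to test in the S phase slope, both called (2), where 49.9% of genes were. It left none in the adipocyte slope (0).

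Quantile normalization called 20 members in tumors against nodes and 31 in spleens against nodes, where 87.1% and 84.1% of genes were called. It called 14 for the S phase slope and 0 in the arms against Isotype in spleens, where 55.9% of genes and 0.00179% of tests were. It turned HIST3H2A in PD1/CYTO spleens (-0.018), HIST2H2BE (0.049) and HIST1H4I (0.47) in tumors against nodes, HIST1H2BE (0.080) and HIST3H2A (0.84) in spleens against nodes, and the S phase slope of HIST1H2BE (0.079). Rescaled TPM called 17 in tumors against spleens and 0 for the arms in spleens, where 79.1% of genes and 0.00179% of tests were called. Rescaling turned HIST3H2A in spleens against nodes (0.26). A pseudocount of 0.1 called 14 in tumors against nodes, where 86.5% of genes were called. The cause of these changes was not tested.

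RNA integrity as a covariate called 11 in spleens against nodes, 7 in tumors against spleens and 3 for the adipocyte slope. The shares of all genes called were 88.4%, 75.6% and 15.2%. That covariate called 0 for the arms in spleens, where 0% of tests were called. The stricter filter also called 0 there, where 4.28% of tests were called. The S phase mean as a covariate called 13 in spleens against nodes, where 75.5% of genes were called. It called 2 for day 23 against day 16, where 10.2% of genes were. It turned HIST1H4I in tumors against nodes (0.045) and, in spleens against nodes, HIST1H2BB (-0.44), HIST1H3G (-0.28), HIST1H1A (-0.43), HIST1H3I (-0.24), HIST1H2BK (-0.23), HIST1H4F (-0.26), HIST1H2AB (-0.34), HIST1H2BM (-0.32), HIST1H2AE (-0.0080), HIST1H2AJ (-0.14), HIST1H4B (-0.30) and HIST1H4K (-0.33). The S phase mean was at most 5.34 in day 23 nodes, at least 5.41 in tumors and at least 5.35 in spleens. Without overlap these turns cannot be read as tissue differences.

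The S phase slope called 3 members in tumors alone, 19 in spleens alone, 5 in day 16 nodes and 0 in day 23 nodes. The shares of all genes called there were 69.1%, 57.7%, 51.9% and 7.9%. The slope called 14 without the 3 nodes low in B cell markers, where 28% of genes were called. It called 1 in spleens without TS/PD1/CYTO mice 59 and 60, where 11.9% of genes were. Some members in spleens alone were tested only through these mice, so the 19 is not read against the share of all genes. The slope turned HIST1H1C in tumors (0.063) and HIST2H2BE (-0.42) and HIST3H2BA (-0.78) in day 23 nodes. In spleens it turned HIST1H2BE (0.15) and HIST1H4H (0.42), and without mice 59 and 60 HIST1H4H (0.52) and HIST1H1C (0.040). Libraries with over 33 members left out gave 5 calls for the arms in spleens and 2 for PD1 in spleens. The shares over all genes were 19.5% and 32.8%.

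Leaving out 1 library at a time gave 9 to 14 calls in tumors against nodes, 18 to 24 in spleens against nodes, 8 to 15 in tumors against spleens, 7 to 14 for the S phase slope and 6 to 10 for the adipocyte slope. It gave 0 to 6 for the arms in spleens: 6 without TS/PD1/CYTO mouse 58 (11.7% of tests called) and 0 without any of 11 others. It gave 0 to 12 for TS in spleens: 12 without mouse 58 (25% of genes called). It gave 0 to 1 for preservation: 1 without TS/PD1/CYTO mouse 52 (26.5% of genes called) or 59 (39.8%). For day, RNA integrity and the other treatment comparisons it gave 0 throughout. Over the members called in the main fits and the alternatives that tested them, 2608 values kept their direction and call. Another 164 were no longer called and 27 turned in sign. Most values came from leaving out 1 library, which gave 2215 of those kept and 89 of those no longer called. With the S phase mean as a covariate 21 were kept, 6 were no longer called and 13 turned.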
